A study of Mus musculus with 4 samples.

Results

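L1Md_T and L1Md_Gf are young LINE-1 subfamilies of the mouse genome. Their loci were taken from the study's LINE tables by repeat name alone, exactly L1Md_T or L1Md_Gf. Those list a locus only where a library had a read on it, so copies without any read are missing. Counts were not otherwise used to choose the loci. The element tables listed 3386 such loci among 145916 LINE loci. Loci of 5000 bp or wider (end minus start), called wide here, numbered 1424 for L1Md_T and 43 for L1Md_Gf. Shorter fragments numbered 1848 for L1Md_T and 71 for L1Md_Gf. The widest fragment measured 4996 bp and the narrowest wide locus 5000 bp. Counting also the tables of flanking intervals, 8173 L1Md_T or L1Md_Gf loci appeared in at least 1 table.

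RNA-seq was made from mice of the C57BL/6J strain in 4 groups with 1 library each. WT and Lsh-/- adult tail-tip fibroblasts formed 1 pair, and the study's methods say that these cells were transformed with SV40. WT and Lsh-/- embryos at E13.5 formed the other pair. Lsh (gene Hells) encodes an SNF2-family chromatin remodelling protein needed for normal DNA methylation, and the comparison asks how repeats are transcribed without it. The sources used here do not say how many animals or cultures went into a library, and with 1 library per group no difference between genotypes has a replicate check. Every test below therefore compares the reads of 2 libraries and says nothing of the spread between animals or cultures.

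A complete LINE-1 element carries a 5′ untranslated region with an internal promoter, a first reading frame (ORF1) for an RNA-binding protein, a second (ORF2) for an endonuclease and reverse transcriptase, and a 3′ untranslated region with a poly(A) tail. In mouse the 5′ region of the T and Gf subfamilies is a row of repeated units called monomers, which hold the promoter and are rich in CpG. Most genomic copies lost their 5′ end at insertion and cannot move. DNA methylation of the 5′ region is thought to help repress the complete copies in somatic cells. For the Lsh-/- fibroblasts the study reports LINE-1 hypomethylation, with activation of only a small part of the LINE-1 loci it could assess. It proposes that losing methylation does not by itself activate them in fibroblasts.

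Parts of some wide loci called higher below are shown first, from the mm9 reference and 5′ to 3′ on the strand of the element. The chr5 locus among them had 7 reads in WT embryos. The others had none in the WT library of the tissue where they were called. The L1Md_T loci at chr17:81637726-81645225 and chr6:56190526-56197456, both on the minus strand, hold repeated units at their 5′ end. Capitals mark the reverse complement of the letters AANATGGC, a YY1-type motif searched on both strands in the first 1000 bases, and each line is a window of 30 bases.
chr17 locus, chr17:81645012-81645041: ttcagggcggcGCCATCTTtagctccagac
chr17 locus, chr17:81644807-81644836: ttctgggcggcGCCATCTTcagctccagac
chr17 locus, chr17:81644601-81644630: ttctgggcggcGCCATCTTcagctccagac
chr17 locus, chr17:81644395-81644424: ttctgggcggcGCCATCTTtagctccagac
chr6 locus, chr6:56197242-56197271: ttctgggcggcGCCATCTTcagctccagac
chr6 locus, chr6:56197036-56197065: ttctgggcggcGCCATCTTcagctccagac
chr6 locus, chr6:56196830-56196859: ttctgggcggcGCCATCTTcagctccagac

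The copies of the motif stood 205 or 206 bases apart in the chr17 locus and 206 bases apart in the chr6 locus. The motif was present in the first 1000 bases of 991 of 1463 wide loci that could be read from the reference (67.7%). Over all 4392 LINE loci of 5000 bp or wider the share was 44.3%. Of the wide loci called higher below, 13 of 25 in fibroblasts (52.0%) and 2 of 12 in embryos (16.7%) had the motif. Only loci with at least 10 reads could be called. Of the wide loci tested without a call, 8 of 17 in fibroblasts (47.1%) and 20 of 35 in embryos (57.1%) had it. The differences between these shares were not tested. A match is a run of letters and does not show that a factor binds there.

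Both loci also had both reading frames open, with 1158 bases for ORF1 and 3846 bases for ORF2. The first 60 bases of the frames are shown with the start codon in capitals, beside those of other L1Md_T loci described below.
ORF1, chr17 locus, chr17:81643387-81643446: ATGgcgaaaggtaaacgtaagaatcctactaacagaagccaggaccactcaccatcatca
ORF1, chr6 locus, chr6:56196235-56196294: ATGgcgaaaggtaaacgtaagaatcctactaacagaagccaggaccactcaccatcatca
ORF1, chr19 locus, chr19:8099521-8099580: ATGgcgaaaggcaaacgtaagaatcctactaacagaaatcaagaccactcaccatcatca
ORF1, chr3 locus, chr3:152233706-152233765: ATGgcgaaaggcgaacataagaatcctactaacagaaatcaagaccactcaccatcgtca
ORF2, chr17 locus, chr17:81642189-81642248: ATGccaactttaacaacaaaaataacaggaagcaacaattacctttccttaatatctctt
ORF2, chr10 locus, chr10:55455287-55455346: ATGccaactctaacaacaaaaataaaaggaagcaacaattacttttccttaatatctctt
ORF2, chr5 locus, chr5:138813790-138813849: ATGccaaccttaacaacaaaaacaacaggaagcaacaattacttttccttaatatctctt

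The chr17 and chr6 loci shared 60 of 60 bases at the start of each frame. At the start of ORF1 the chr19 locus shared 56 of 60 bases with the chr17 locus and the chr3 locus shared 53. At the start of ORF2 the chr10 and chr5 loci each shared 57 bases with it. Such likeness limits what unique reads can count. Of all windows of 51 bases in a wide L1Md_T or L1Md_Gf locus, a median of 6.03% occurred nowhere else in the reference, against 5.96% for wide L1Md_A, another young subfamily, and 42.9% for wide loci of the older L1Md_F, L1Md_F2 and L1Md_F3 group.

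Summed over every LINE locus, the fibroblast libraries reached 477719 (WT) and 456109 (Lsh-/-) reads and the embryo libraries 855043 (WT) and 808168 (Lsh-/-). Libraries were put on 1 scale through TMM factors over the intervals flanking LINE-1 loci, which gave effective sizes of 19481559 and 20118423 for the fibroblast pair and 27051956 and 26054891 for the embryo pair. Intervals covering Hells exons 11 and 12 held 937 reads in WT and 0 in Lsh-/- fibroblasts, and 427 and 0 in the embryos. Over the gene's other exons apart from exon 13, the fibroblast intervals held 5784 and 6132 reads and the embryo intervals 2187 and 2014. Chromosome Y intervals summed to 12 reads for WT and 5402 for Lsh-/- fibroblasts, so the fibroblast libraries also differ in sex chromosomes, and in the embryos they held 19973 and 20654. Of 9 fibroblast markers 8 lay under a flanking interval, and 7 had reads in each fibroblast library, while Lum was at 0 in both. The 8 covered markers summed to 40727 (WT) and 28937 (Lsh-/-). Counts in Lsh-/- were lower for Col1a1 (22126 and 14041), Postn (11555 and 2064), Pdgfra and Col1a2. They were higher for Col3a1 (4188 and 9082), Fbn1 (1571 and 2966) and Dcn (11 and 42). In the same libraries the 5 covered neuron markers summed to 852 and 905. Of these, Stmn2 held 2 and 493 and Tubb3 held 848 and 410. Afp held 1 and 45, and the muscle markers summed to 2 and 64, with reads on 2 and 4 of 4. In the embryos intervals over the liver markers (Afp, Alb, Apoa1) summed to 3165 counts in WT and 376 in Lsh-/-, and those over the red blood cell markers to 480 and 266. Those over the muscle markers summed to 15691 and 15922, over the neuron markers to 1990 and 1294 and over the fibroblast markers to 712788 and 666484. Fewer cells of a type and less RNA per cell cannot be told apart in these libraries, and the part of these differences in the results was not tested.

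In fibroblasts, reads on wide L1Md_T and L1Md_Gf loci were spread over more loci in the Lsh-/- library and, once a locus on chromosome 13 was left out, were also more numerous there. A read was found on 675 wide loci in Lsh-/- and on 309 in WT, of which 576 were read in Lsh-/- alone, 210 in WT alone and 99 in both. For the other LINE loci of 5000 bp or wider these 3 counts were 894, 379 and 379, so they had the same direction. For all LINE loci they were 28685, 34079 and 33612. Leaving out the chromosome 13 locus, described below, the wide loci summed to 646 reads in WT and 2047 in Lsh-/-, which is 3.07-fold higher on the common scale (95% counting interval 2.81 to 3.36) and 5.39-fold higher with the total count of the flanking intervals as library size. Intervals of this kind cover counting error only, since the reads carry no molecular identifiers. Without the wide locus that had the most reads after it, on chromosome 10, the difference was 2.82-fold (2.57 to 3.09). Most loci held little, and 406 of the 674 remaining wide loci read in Lsh-/- (60.2%) had exactly 1 read.

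The locus left out stands at chr13:9831267-9837911 on the minus strand, is an L1Md_T of 6645 bp and overlaps an annotated miRNA gene, mmu-mir-2134-4, at chr13:9833715-9833771. It held 42369 reads in WT and 1787 in Lsh-/- fibroblasts, and 3441 in WT and 3516 in Lsh-/- embryos. WT fibroblasts held 44584 L1Md_T and L1Md_Gf reads in all, so nearly all of them fell on this locus, while in Lsh-/- fibroblasts its share was 29.3%. The locus was 24.5-fold lower in the Lsh-/- fibroblast library (23.4 to 25.7) and 1.06-fold higher in the Lsh-/- embryo library (1.01 to 1.11), where the exact binomial test gave an adjusted p of 0.0612. Its flanking intervals held no more than 1 read in any library. With this locus in the sum, wide loci were lower in Lsh-/- fibroblasts, with a log2 ratio of −3.53, so the direction of the sum rests on it. The source of its reads was not tested.

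Fragments shorter than 5000 bp gave a smaller ratio. They held 1569 reads in WT and 2268 in Lsh-/- fibroblasts, a ratio of 1.4 (1.31 to 1.49) that became 2.46 with the total count of the flanking intervals as library size, and a read was found on 534 and 722 of them. The fragment with the most reads, at chr16:18532464-18533284 in an intron of Gnb1l, a gene for a WD-repeat protein, and on the opposite strand to that gene, fell from 324 reads in WT to 10 in Lsh-/- (33.5-fold lower, 17.96 to 70.4, adjusted p = 7.81e-82 by the exact binomial test), while the embryos held 26 and 28. It has no window of 51 bases unique to it in the reference. Without this fragment the short class was 1.76-fold higher in Lsh-/- (1.64 to 1.88). The ratio of fragments also differed with their number of unique windows, as given below.

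In embryos the ratios of both classes were nearer to 1. Without the chromosome 13 locus, wide loci held 1562 reads in WT and 1691 in Lsh-/-, a ratio of 1.12 (1.05 to 1.20), and a read was found on more wide loci in WT, 510, than in Lsh-/-, 449. Short fragments held 2669 and 2975 reads, a ratio of 1.16 (1.10 to 1.22), on 744 and 724 loci. The difference between fibroblasts and embryos was not tested, since each rests on 1 pair of libraries.

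**Figure D1:**
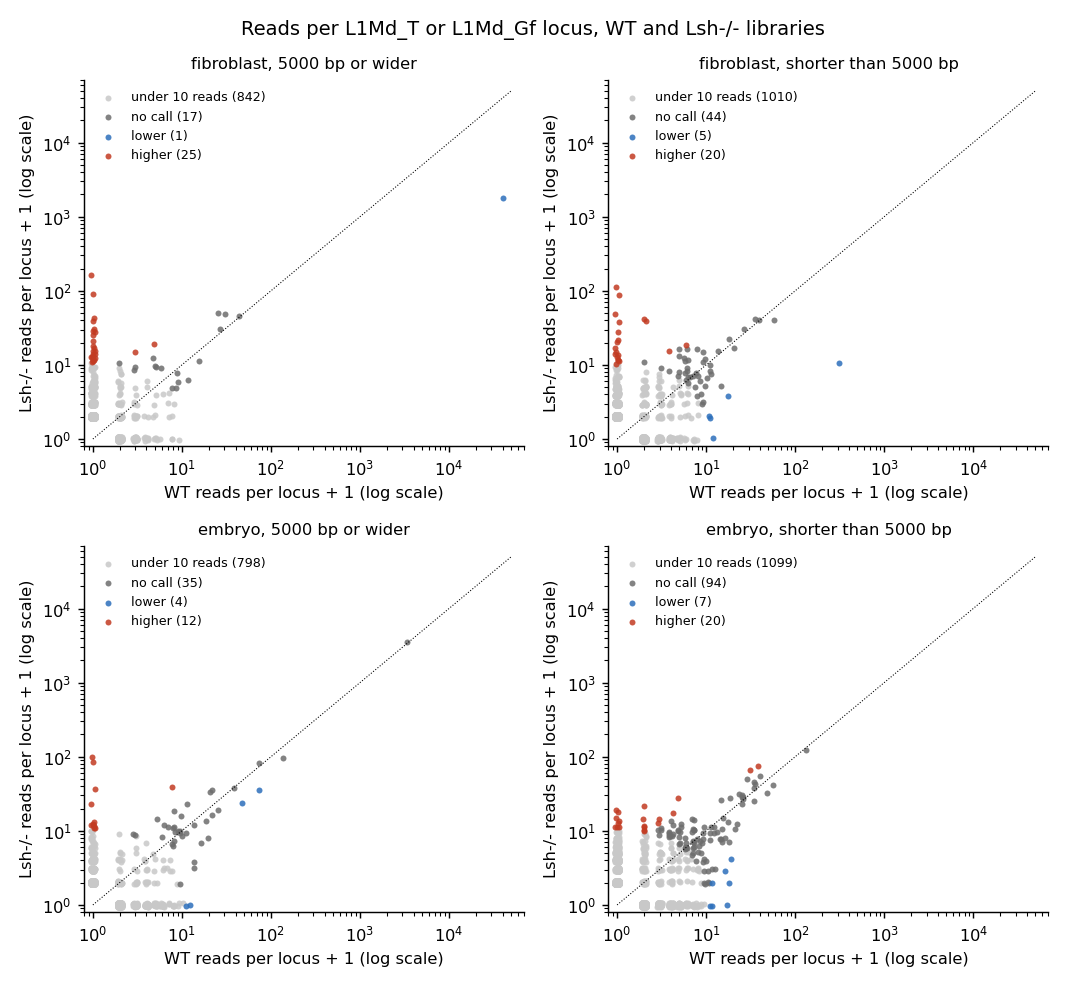
Reads per locus plus 1 in the WT library (horizontal, log scale) and in the Lsh-/- library (vertical, log scale) for wide and short loci in both tissues, with points moved slightly at random so that they do not cover each other and the dotted line at equal reads. Red and blue points are loci called higher and lower in Lsh-/-, dark grey points were tested without a call and light grey points had under 10 reads. In fibroblasts 23 of the 25 wide loci called higher lie on the left edge, with no read in WT, and the chromosome 13 locus is the blue point at the far right.

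Locus by locus, 43 wide loci had at least 10 reads in the fibroblast pair and could be tested, of 1467 listed. The exact binomial test against the ratio of effective sizes, with Benjamini-Hochberg adjustment over all 14058 tested LINE loci at 0.05, called 25 of them higher in Lsh-/- (58.1%), 1 lower and 17 neither. Over all tested LINE loci 14.8% were called higher and 7.11% lower, and over all tested LINE loci of 5000 bp or wider the shares were 40.8% and 15.2%. Among 69 tested fragments 20 were called higher and 5 lower, a split that became 31 and 2 when the total count of the flanking intervals set the library sizes. Of the 25 wide loci called higher, 23 had 0 reads in WT, and the counts in Lsh-/- ran from 10 to 168 with a median of 15. The median log2 fold change of the tested wide loci was 6.32, with a 95% order-statistic interval over loci of 1.39 to 6.69. Since 23 of these 43 loci had 0 reads in WT, they passed the minimum of 10 only through their Lsh-/- reads. Without a minimum the median was 3.15 for wide loci and 3.15 for fragments. Any locus with 0 reads in WT and 1 in Lsh-/- takes this value from the small count added to both libraries. The equal medians therefore measure no size of change. For the same reason the median of the tested wide loci was also computed with loci at 0 in WT set to the value that 3 reads in WT would give, and was 1.95. The tested fragments had a median of 0.43 and all tested LINE loci of 0.09. With edgeR's exact test at an assumed biological coefficient of variation of 0.4, which allows for spread that 2 libraries cannot show, the calls of higher fell to 10 wide loci and 10 fragments.

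Among the wide loci called higher the largest rise in reads was at the L1Md_T on chromosome 10 (chr10:55453639-55458809, plus strand, intergenic, 275295 bp from the nearest coding gene). It held 0 reads in WT and 168 in Lsh-/- fibroblasts and 0 in both embryo libraries. Taking 3 reads as the floor in WT, the Lsh-/- count was 54.2-fold higher (exact binomial test, adjusted p = 1.88e-47). Such a fold over the floor takes the Lsh-/- count as exact, so it is not a lower bound. The counting interval of this locus started at 43.6-fold. The intervals between 10 and 11 kb from its ends held 0 reads on either side in WT and 11 on the 5′ and 6 on the 3′ side in Lsh-/- fibroblasts. Its ORF2 frame, whose start is shown above, closes after 1041 bases, so this copy does not encode the whole protein.

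The chr6 and chr17 loci, whose repeated units and frames are shown above, were read only in Lsh-/- fibroblasts. The chr6 locus lies in an intron of Pde1c, which encodes a cyclic nucleotide phosphodiesterase, on the same strand as the gene. It held 0 and 36 reads (11.6-fold over the floor, counting interval from 8.97, exact adjusted p = 1.17e-09). The chr17 locus is intergenic, 140134 bp from Slc8a1, and held 0 and 27 reads (8.71-fold over the floor, counting interval from 6.61, exact adjusted p = 3.95e-07). Neither had a read in an embryo library, and neither had a read in the flanking interval on either side in any library. Only 97 of the 6881 windows of the chr6 locus and 158 of the 7450 of the chr17 locus are unique, so most of their sequence also occurs elsewhere.

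An LTR of the IAPLTR2_Mm family, an endogenous retrovirus promoter, stood 1660 bp from the chr17 locus and had itself a log2 fold change above 5 in fibroblasts. Over all wide loci other than that on chromosome 13, 27 listed in fibroblasts had such an LTR within 10 kb, and these summed to 5 reads in WT and 117 in Lsh-/- (22.7-fold, 9.44 to 71.1). The other 857 wide loci listed there summed to 641 and 1930 (2.92-fold, 2.67 to 3.19). All 4 tested loci near such an LTR were called higher, and so were 21 of the 38 farther away. The LTRs were picked by their own change in these libraries, so this is a description and not a separate test.

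Wide loci were called higher in both tissues at 4 places, all intergenic. The first, an L1Md_T on chromosome 18 (chr18:37735437-37740833, 54364 bp from Pcdhb22, a protocadherin gene), held 0 reads in WT and 88 in Lsh-/- fibroblasts, and 0 and 94 in the embryos. The Lsh-/- counts were 28.4-fold and 32.5-fold over the floor in the 2 tissues (exact adjusted p = 1.53e-24 and 6.64e-27). Their counting intervals started at 22.6 and 25.9. On chromosome X (chrX:116443856-116449542, plus strand) the reads were 0 and 43 in fibroblasts and 0 and 37 in embryos. The chr19 locus (chr19:8098997-8104202, 32497 bp from Slc22a28, an organic anion transporter gene) held 0 and 28, then 0 and 81. The locus on chromosome 1 (chr1:151339547-151345532, minus strand) held 0 and 20, then 0 and 22.

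These 4 loci thus had no read in either WT library and at least 20 in each Lsh-/- library. They were 16.0% of the wide loci called higher in fibroblasts and 33.3% of those called higher in embryos. For all LINE loci of 5000 bp or wider the shares called in both were 13.9% and 23.2%, and for all LINE loci 229 of 2076 and 229 of 2706 (8.46%). Their longest open frames measured 1749 bases on chromosome 18, 1116 on chromosome 19, 1014 on chromosome 1 and 372 on chromosome X, all short of a complete ORF2. No locus of either width was called higher in 1 tissue and lower in the other. Of the 25 wide loci called higher in fibroblasts only 5 had the 10 reads needed for a test in embryos, of which 4 were called higher, and the other 20 could not be tested, 13 of them with no read in either embryo library.

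The 20 short fragments called higher in fibroblasts lay on 11 chromosomes, and 16 had no read in WT. On chromosome 9 the L1Md_T fragment at chr9:39683395-39684844 lay 1589 bp from Olfr972, an olfactory receptor gene. It held 0 reads in WT and 116 in Lsh-/- fibroblasts (37.4-fold over the floor, counting interval from 29.97, exact adjusted p = 1.21e-32). In the embryos it held 0 and 11 and was also called. A second fragment near it, at chr9:39689250-39692586, held 0 and 83 reads in fibroblasts and 0 and 7 in embryos. The fragment at chr7:60896181-60899852 held 0 and 47, with 0 and 6 in embryos. At chr15:10736265-10740038 the reads were 1 and 39, a ratio of 37.8 whose counting interval runs from 6.39 to 1529, and the embryos held 2 and 1.

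Some of the called loci adjoin each other. With loci of the same strand no more than 500 bp apart taken as 1 group, the 45 wide and short loci called higher in fibroblasts formed 41 groups, and the 32 in embryos formed 31. In fibroblasts 2 of the short fragments called higher adjoined a wide locus with the same call, and in embryos 1 did.

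**Figure D2:**
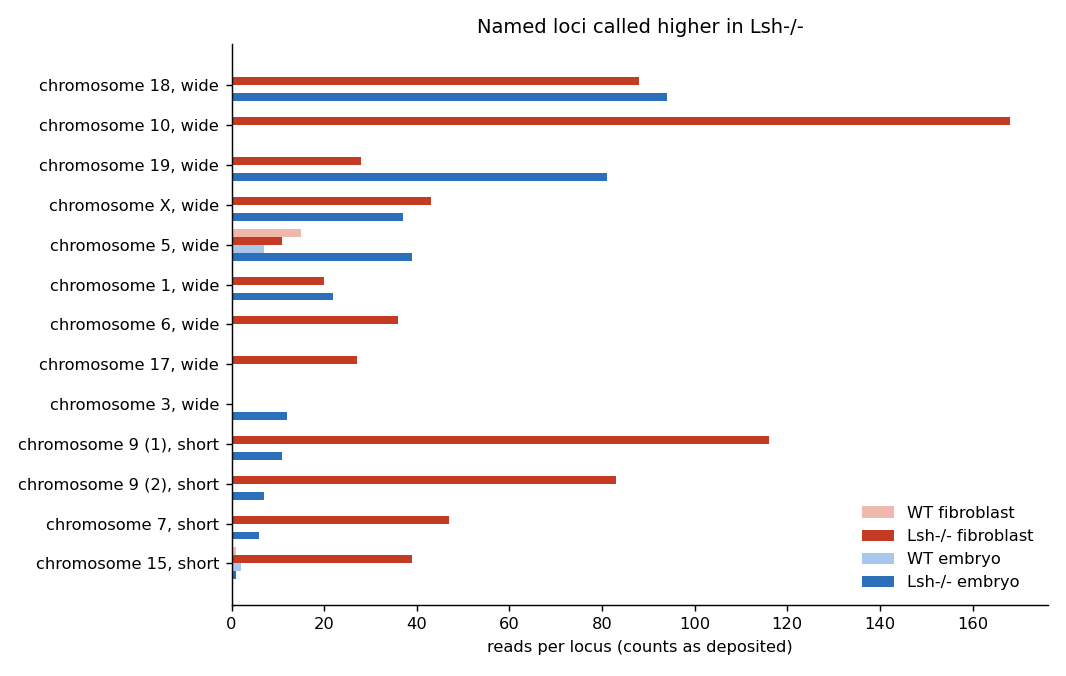
Reads per locus (horizontal, counts as deposited) in the 4 libraries for the named wide loci called higher in either tissue and the named short fragments called higher in fibroblasts. WT bars are absent at every locus but those on chromosomes 5 and 15, and the loci on chromosomes 18, 19, X and 1 show bars for both Lsh-/- libraries.

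In embryos 51 wide loci were tested, and 12 were called higher in Lsh-/- (23.5%), 4 lower (7.84%) and 35 neither. Over all 24989 tested LINE loci 10.8% were called higher and 10.0% lower, and over those of 5000 bp or wider 19.2% and 13.4%. Among 121 fragments 20 were called higher (16.5%) and 7 lower. The medians of the log2 fold change were 0.41 for wide loci, with an interval of −0.17 to 0.90 and a value of −0.87 without the minimum of 10 reads, 0.16 for fragments and 0.04 for all tested LINE loci. With edgeR's exact test as above, 3 wide loci and 0 fragments were called higher and 0 of either lower.

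Besides the 4 loci shared with fibroblasts, the largest embryo counts among wide loci called higher were on chromosomes 5 and 3. The chr5 locus (chr5:138809333-138815542, in an intron of Gm10874 on the opposite strand) held 7 reads in WT and 39 in Lsh-/- embryos, 5.79-fold higher (2.56 to 15.3, exact adjusted p = 4.65e-05), and 15 and 11 in fibroblasts. A fragment in the same intron, chr5:138817732-138818310, held 1 and 20 in embryos and 13 and 4 in fibroblasts. The chr3 locus (chr3:152233190-152238389) lies in an intron of Ak5, an adenylate kinase gene, on the opposite strand. It held 0 and 12 reads in embryos (4.15-fold over the floor, counting interval from 2.885, exact adjusted p = 0.003) and none in fibroblasts.

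The 4 wide loci called lower in Lsh-/- embryos all lay in introns. They were chr3:14593323-14598454 in E2f5, a transcription factor gene of the cell cycle, with 69 and 35 reads, chr9:5359136-5365310 in Casp12, a caspase gene, with 48 and 23, chr14:70149209-70154407 in 4930480K23Rik and Gm16867 with 12 and 0, and chr9:20159081-20164546 in Zfp560 with 10 and 0. In fibroblasts the first of these held 42 and 44 reads, a ratio of 1.01 (0.649 to 1.59), and the other 3 held 2 or fewer. The wide locus with the most embryo reads after that on chromosome 13, chr7:32009547-32014828, held 132 and 92 (exact adjusted p = 0.079), and 29 and 48 in fibroblasts.

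Of the 20 fragments called higher in embryos 8 had no read in WT, and the WT counts of the others reached 39. In Yme1l1, which encodes a mitochondrial protease, the fragment chr2:23052113-23052309 held 39 and 73 reads in embryos and 10 and 9 in fibroblasts. In Ndel1, a gene of neuronal migration, the fragment chr11:68641340-68641592 held 30 and 68, and 7 and 16. In Tmtc3 the fragment chr10:99941702-99942146 held 4 and 26, and 4 and 0. Of the 20 embryo fragments called higher 14 lay in introns, 1 overlapped an exon and 5 were intergenic. Of the 20 in fibroblasts 3 lay in introns and 17 were intergenic. The tested fragments also differed in position, with 29 of 121 intergenic in embryos and 31 of 69 in fibroblasts. Of these intergenic ones 17.2% were called higher in embryos and 54.8% in fibroblasts. The fragment with the most embryo reads, chr1:93276138-93276623 in an intron of Ilkap, a protein phosphatase gene, held 139 and 129 and was not called.

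Fragments called lower were few. In fibroblasts they included, beside that in Gnb1l, chr4:123612061-123612353 in Rragc, a gene of nutrient sensing, with 16 and 3 reads and chr1:6263577-6264263 in Rb1cc1, a gene of autophagy, with 10 and 1. In embryos they included chr7:111623892-111626411, an L1Md_Gf in Trim30d, with 19 and 3 reads, chr13:62553502-62553735 near Zfp935 with 17 and 1, and chr2:26814675-26815051 in Rexo4 with 15 and 2. Rragc and Rb1cc1 fragments held 35 and 41 reads and 24 and 21 reads in embryos, without a call.

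L1Md_Gf loci were too few and too thinly read to describe apart. All 114 summed to 54 and 108 reads in WT and Lsh-/- fibroblasts, a ratio of 1.94 (1.38 to 2.74), which became 1.58 (1.11 to 2.26) without the fragment that had the most reads. In embryos the sums were 113 and 99. The L1Md_Gf loci called higher, chosen here after their values were seen, were chr2:151062882-151065527 with 0 and 20 reads in fibroblasts and the wide locus chr1:105439825-105444943 with 0 and 11 in embryos.

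The loci were also split by position relative to genes. In fibroblasts wide intergenic loci summed to 319 reads in WT and 1485 in Lsh-/- (4.51-fold, 3.99 to 5.10), those in introns on the strand of the gene to 107 and 236 (2.14-fold, 1.69 to 2.71), and those in introns on the opposite strand to 212 and 309 (1.41-fold, 1.18 to 1.69). Short intergenic fragments followed the wide ones, with 307 and 1325 reads (4.18-fold, 3.69 to 4.75). Short fragments in introns on the strand of the gene held 456 and 446 (0.947-fold, 0.829 to 1.08). On the opposite strand they held 771 and 464 (0.583-fold), and 0.984-fold (0.861 to 1.12) without the Gnb1l fragment. Without the intergenic locus that had the most reads, the ratio was 4.0 (3.53 to 4.53) for wide loci and 3.81 (3.36 to 4.34) for short ones. These are ratios of 2 libraries, and the differences between the classes were not tested.

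In embryos wide intergenic loci summed to 783 and 948 reads (1.26-fold, 1.14 to 1.38), and short ones to 787 and 880 (1.16-fold, 1.05 to 1.28). Of the 21 tested wide intergenic loci 10 were called higher and 0 lower, while of the 28 in introns 2 were called higher and 4 lower.

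**Figure D3:**
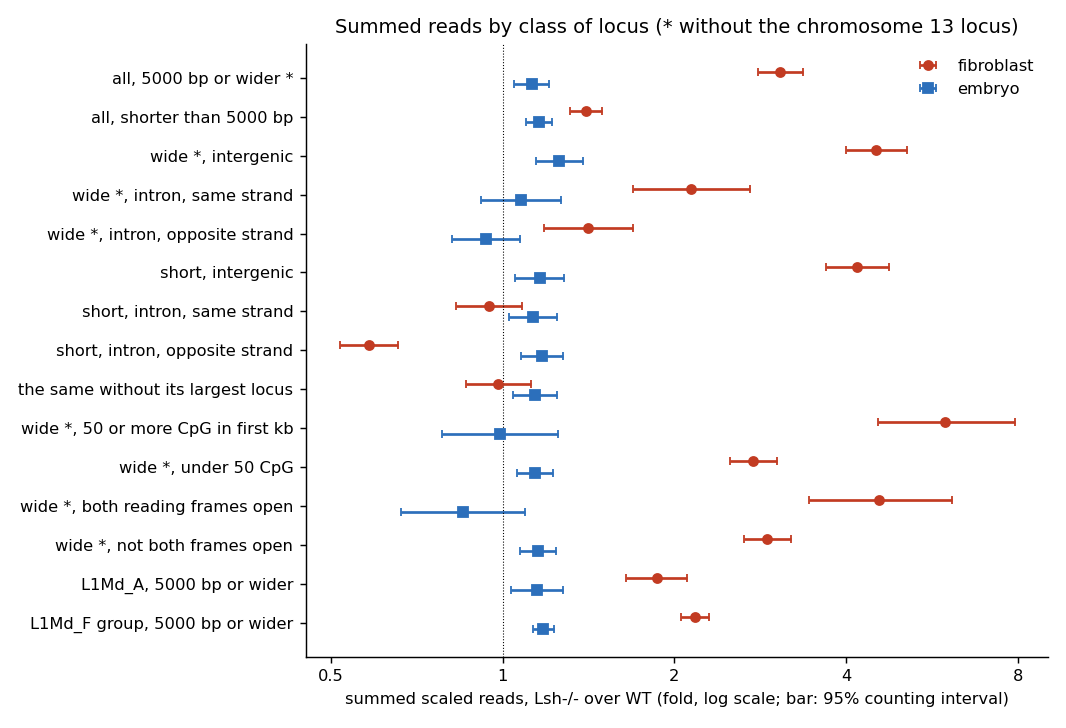
Summed scaled reads of Lsh-/- over WT (horizontal, fold on a log scale, bars are 95% counting intervals) for classes of L1Md_T and L1Md_Gf loci and for wide loci of 2 other groups, in fibroblasts (red circles) and embryos (blue squares). Intergenic loci of both widths lie above 4 in fibroblasts, and embryo values lie between 0.852 and 1.26 in every class.

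Complete copies were looked at through 2 features of the sequence, neither of which used a count, and the chromosome 13 locus is left out of the sums. With at least 50 CpG in the first 1000 bases, a density that 234 of 1463 wide loci reached, reads summed to 63 in WT and 387 in Lsh-/- fibroblasts (5.95-fold, 4.55 to 7.89). Wide loci with fewer CpG summed to 583 and 1656 (2.75-fold, 2.50 to 3.03). With an open frame of at least 3800 bases behind another of at least 1000, as ORF2 and ORF1 have, 233 loci summed to 60 and 283 reads (4.57-fold, 3.45 to 6.14), and the others to 586 and 1760 (2.91-fold, 2.65 to 3.20). The features overlap, since 95 of the 233 also had 50 CpG or more. Of the 7 loci with both frames open that were tested in fibroblasts 4 were called higher. Wide loci were also split by the motif shown above. Those with it in the first 1000 bases summed to 358 and 1122 reads (3.035-fold, 2.69 to 3.43). Those without it summed to 288 and 921 (3.097-fold, 2.71 to 3.55).

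In embryos the loci rich in CpG summed to 151 and 144 reads (0.990-fold, 0.783 to 1.25), and those with both frames open to 145 and 119 (0.852-fold, 0.663 to 1.09). None of the 12 wide loci called higher in embryos had 50 CpG or more in its first 1000 bases, against 5 of the 25 in fibroblasts. Few tested wide loci other than that on chromosome 13 had this density, 4 of 50 in embryos and 6 of 42 in fibroblasts. The difference between the tissues was not tested.

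The ratio in fibroblasts was also taken by the number of unique windows, again without the chromosome 13 locus, which has 556 of them. Wide loci with at least 1 and under 100 unique windows summed to 76 and 272 reads (3.47-fold), those with 100 to under 500 to 200 and 591 (2.86-fold), those with 500 to under 1000 to 203 and 617 (2.94-fold), and those with 1000 or more to 154 and 526 (3.31-fold). The 31 wide loci without a unique window of this length held 13 and 37 reads (2.76-fold). The ratio thus lay between 2.76 and 3.47 in every class of wide loci. In embryos the same classes of wide loci, from none to 1000 or more, gave 0.431, 0.798, 1.07, 1.47 and 1.00. Of the tested wide loci in fibroblasts, 2 of 3 with 1 to under 100 unique windows and 5 of 8 with 100 to under 500 were called higher. With 500 to under 1000 it was 12 of 19, with 1000 or more 6 of 11, and without a unique window 0 of 1. The share that could be tested differed, with 3 of 278 wide loci at 1 to under 100 and 19 of 367 at 500 to under 1000. Fragments in fibroblasts gave 0.491 without a unique window (651 and 330 reads, with the Gnb1l fragment) and 1.59 with 1 to under 100. With 100 to under 500 they gave 2.93 (234 and 709), with 500 to under 1000 3.13 (65 and 210), and with 1000 or more 2.16 (13 and 29).

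Loci too thinly read to be tested went the same way in fibroblasts. The 842 wide loci with under 10 reads in the pair summed to 439 in WT and 1107 in Lsh-/- (2.44-fold, 2.18 to 2.73), beside 207 and 940 (4.40-fold, 3.78 to 5.14) for the 42 tested ones other than that on chromosome 13. In embryos the 798 thinly read wide loci summed to 854 and 730 (0.888-fold, 0.803 to 0.981), while the 50 tested ones went from 708 to 961 (1.41-fold, 1.28 to 1.56). The sums of the embryo pair thus went opposite ways on either side of the minimum of 10 reads.

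The flanking intervals set the change at an element beside that farther out, between 10 and 11 kb as worked out below. An interval without reads does not show that a transcript kept to the element, since one ending before 10 kb leaves no read there. For LTRs the study describes flanking intervals as wide as the repeat itself. The deposited flanking counts fitted a fixed interval of 1 kb, since repeats lying wholly between 10 and 11 kb from a wide locus and holding 10 or more reads in a library never held more than the flanking count of that locus (78 of 78 comparisons), while between 9 and 10 kb this was so in 60 of 80 and between 11 and 12 kb in 72 of 98. Elements and flanks thus differ in length, their counts are not per length, and the sides were turned to 5′ and 3′ by the strand of the element. Around the 25 wide loci called higher in fibroblasts, the 5′ intervals summed to 23 reads in WT and 152 in Lsh-/- and the 3′ intervals to 2 and 27, beside 6 and 673 on the elements. Of the 25 loci 10 had no read in either flank in either library. On the 5′ side 7 intervals could be tested and 6 were called higher, and on the 3′ side none had 10 reads. Around the 20 short fragments called higher, 11 had at least 1 flank called higher, with 138 and 465 reads on the 5′ side and 6 and 457 on the 3′ side.

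Around the 12 wide loci called higher in embryos the flanks held 28 and 22 reads on the 5′ side and 218 and 198 on the 3′ side, beside 7 and 349 on the elements. Most of the 3′ reads and most of the WT reads on the 5′ side came from single loci, chosen here after their values were seen. The 3′ interval of chr17:44245720-44251957 held 213 and 191 of these reads, and those of the other 11 loci 5 and 7, while the 5′ interval of the chr3 locus held 21 and 1, and the other 11 held 7 and 21. Of these loci 4 had no read in either flank. On each side 1 interval could be tested, of which the 5′ one was called lower and the 3′ one not called.

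**Figure D4:**
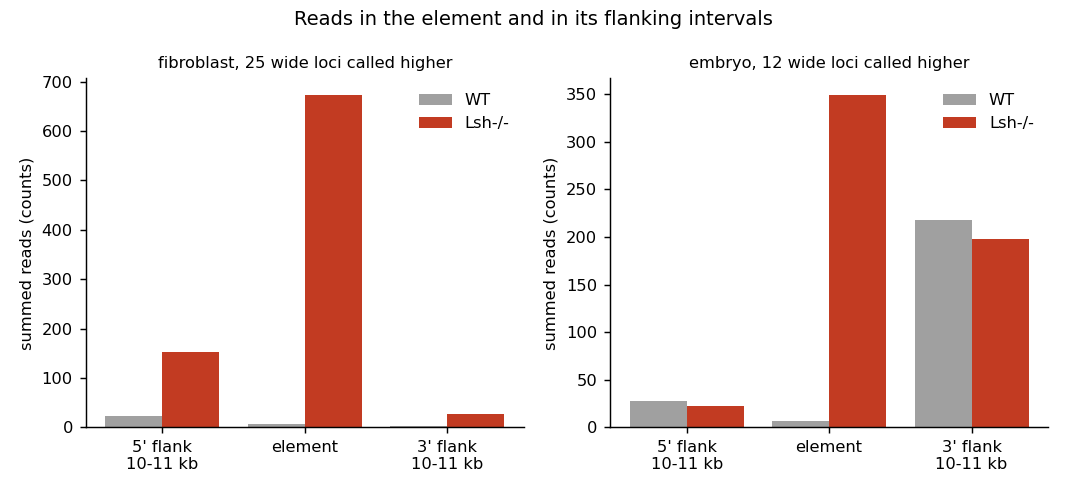
Summed reads (vertical, counts) on the wide loci called higher and in their intervals 10 to 11 kb to the 5′ and 3′ side, for the WT library (grey) and the Lsh-/- library (red). In fibroblasts the 25 elements went from 6 to 673 reads and the 5′ intervals from 23 to 152, and in embryos the 12 elements went from 7 to 349 while their 3′ intervals held 218 and 198, of which 1 locus on chromosome 17 gave 213 and 191.

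Over all L1Md_T and L1Md_Gf loci of the flanking tables, whatever their own reads, 854 intervals on the 5′ side could be tested in fibroblasts, of which 226 were called higher (26.5%) and 88 lower. For 5′ intervals of all LINE loci the shares were 22.4% higher and 12.6% lower. On the 3′ side 215 of 844 were called higher (25.5%) and 89 lower, beside 21.5% and 12.4% for all LINE loci. The 5′ intervals of wide loci stood at 48 of 121 called higher (39.7%), those of fragments at 178 of 733 (24.3%), and the 3′ intervals of wide loci at 32 of 122 (26.2%). In embryos 183 of 1181 intervals on the 5′ side were called higher (15.5%) and 167 lower, beside 12.9% and 14.1% for all LINE loci. On the 3′ side 150 of 1135 were called higher (13.2%) and 155 lower, beside 12.8% and 14.2%. With edgeR's exact test as above, 61 intervals on the 5′ side and 80 on the 3′ side were called higher in fibroblasts and 4 on each side in embryos. With the flanking total as library size, 503 and 492 were called higher in fibroblasts. Intervals of neighbouring repeats overlap, so these counts share reads.

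Wide loci of other subfamilies are given for comparison on the same scale. In fibroblasts wide L1Md_A loci summed to 400 reads in WT and 769 in Lsh-/- (1.86-fold, 1.65 to 2.11), and of 14 tested 6 were called higher and 2 lower (14.3%). Wide loci of the L1Md_F group summed to 1818 and 4078 (2.17-fold, 2.06 to 2.30), and of 112 tested 54 were called higher and 16 lower (14.3%). In embryos the ratios were 1.15 for L1Md_A and 1.18 for the L1Md_F group, beside 1.12 for L1Md_T and L1Md_Gf. The differences between subfamilies were not tested, and their loci differ in how much of their sequence is unique.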

How the data were processed

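RNA-seq libraries of WT and Lsh-/- tail-tip fibroblasts and E13.5 embryos (1 each) were paired-end and strand-specific, made by the dUTP method. The authors aligned reads to mm9 with TopHat 1.4.0, required reads and their segments to match without mismatches at first alignment, and joined unique reads to repeat annotation in Galaxy. The values they deposited are raw read counts per repeat locus, made as input for edgeR, with loci that had no read not listed and taken as 0 here. Whether strand was used and whether a pair counted once are not given in the sources used here. Columns of raw counts were the values used throughout.

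L1Md_T and L1Md_Gf loci were taken by repeat name. They and all lists were chosen with earlier results of these data known. Library sizes were TMM factors (edgeR 4.0.16, R 4.3.3) over intervals flanking LINE-1 loci. The flanking totals were 25825025 and 15176684 reads in WT and Lsh-/- fibroblasts, and 26943655 and 26159620 in the embryos. Loci with at least 10 reads in a pair were tested by a two-sided exact binomial test of the 2 libraries (scipy 1.17.1), with Benjamini-Hochberg adjustment over all tested LINE loci at 0.05. The procedure was tested on simulated counts. Counting intervals at 95% cover counting error only. Starts were moved to 1-based positions. Sequence, genes and unique windows of 51 bases came from the mm9 assembly NCBIM37 and its GENCODE annotation. Of the listed LINE loci 173 lay on sequences not in that reference.

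Named loci were, per tissue, the 6 wide loci called higher and 4 called lower with the most reads, the 4 short called higher and 3 called lower, the 3 loci with the most reads whatever their change, and up to 5 called higher in both tissues. Alternatives were other library sizes (the LINE table total, DESeq2 1.42.0 size factors), a prior count of 1, no minimum, edgeR's exact test, and sets without chromosomes X and Y or without loci overlapping an exon. The DESeq2 sizes came out equal within each pair, at 19797430 for both fibroblast and 26548743 for both embryo libraries. That alternative thus compared raw counts without scaling. The chromosome 13 locus left out and the flanking total as library size were added after seeing the data.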

Additional observations from a re-analysis of the deposited data

How the results depend on the processing

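Of 132 values recomputed under 9 alternatives, 97 kept their direction and stayed within the counting or order-statistic interval of the value reported (counts within 1.5 times), 33 moved and 2 reversed. The 97 include 19 values under DESeq2 size factors. Those factors were equal within each pair and close to the TMM sizes, which left little room for change. The reversals were the log2 ratio of summed reads of wide loci in fibroblasts, −3.53, which was 1.63 without loci overlapping an exon and 1.62 without the chromosome 13 locus, and either step left 0 wide loci called lower in place of 1. The same steps moved the embryo ratio from 0.11 to 0.17 each (0.172 and 0.169). With the LINE table total as library size the fibroblast ratios were −3.42 for wide loci and 0.60 for fragments (0.49 as reported), and 3 fragments were called lower in place of 5, as also with DESeq2 size factors. With the flanking total, chosen after seeing the data, the median of all LINE loci in fibroblasts was 0.89 in place of 0.09, the ratios were −2.72 and 1.30, the medians 6.72 (wide, 6.32 as reported) and 1.23 (fragments, 0.43), fragments called higher and lower 31 and 2, and flanking intervals called higher 503 (5′) and 492 (3′). Without the minimum of 10 reads the median of wide loci was 3.15 in fibroblasts (6.32), that of fragments 3.15 (0.43) there and 0.051 in embryos (0.16), that of wide loci in embryos −0.87 (0.41), and the calls of lower were 2 for fibroblast fragments, 1 for embryo wide loci and 4 for embryo fragments. The 3.15 is the value of a fibroblast locus with 0 reads in WT and 1 in Lsh-/-. The −0.87 is that of an embryo locus with 2 and 1. By edgeR's exact test at the assumed variation of 0.4, calls of higher were 10 wide loci and 10 fragments in fibroblasts and 3 and 0 in embryos, calls of lower were 1 fibroblast fragment and 0 wide loci and 0 fragments in embryos, and flanking intervals called higher were 61 and 80 in fibroblasts and 4 and 4 in embryos. Leaving out chromosomes X and Y kept 20 of 20 values within that interval, with the median of embryo fragments at 0.053 and that of embryo wide loci at 0.22, and a prior count of 1 kept 4 of 4, although the wide interval let the fibroblast median of wide loci go to 3.44. The cause of the other changes was not tested.

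No paired analysis was possible because each group has 1 library, and no leave-one-out fit was run for that reason. Depth limits the results. Of 1467 wide loci, 43 in fibroblasts and 51 in embryos held the 10 reads needed for a test, and a locus at 0 reads is known only to lie under the floor of 3 reads among unique reads.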
